A study of Mus musculus with 11 samples.

Results

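The genes described here are 31 immune genes that are classical targets of RUNX transcription factors (TFs) in blood cells, out of 21911 protein-coding genes annotated in the mouse. They were taken as a named list, and each was followed in the lists of genomic regions bound by Runx3 and by Brn3a in embryonic sensory neurons. CUT&RUN, in which an antibody directs micrococcal nuclease to the DNA around its target, had been performed on TrkC neurons of dorsal root ganglia (DRG) at E12.5. Cells positive for green fluorescent protein (GFP) were sorted from BacE-GFP embryos of Runx3-BAC-GFP-CB6 transgenic mice, in which a bacterial artificial chromosome with the Runx3 locus drives GFP, so that the gate followed Runx3 regulatory DNA and not a pan-neuronal marker. All 11 libraries shared this genotype, tissue and stage, with 3 for anti-Runx3, 4 for anti-Brn3a, 3 for the acetylated histone mark H3K27Ac and 1 for Normal Rabbit Serum. A Runx3 peak was kept when present in at least 2 of the 3 libraries, and a Brn3a peak when present in at least 2 of the 4 libraries. Each antibody thus had 1 pooled list, with no height, no score and no value per library, and the depth of sequencing behind it is unknown.

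RUNX TFs bind DNA through their Runt domain together with the partner Cbfb, and they act as activators or repressors depending on the gene and the cell. In cytotoxic T cells Runx3 silences Cd4 and Zbtb7b, the gene of the helper-lineage factor ThPOK, and it promotes Cd8a, Itgae and genes of the killing programme. In myeloid cells RUNX proteins act at Spi1, which encodes the ETS-family TF PU.1, and at Csf1r, the receptor for macrophage colony-stimulating factor. In the DRG, Runx3 is the RUNX protein that the TrkC neurons sensing muscle stretch require, and Brn3a (encoded by Pou4f1) is a sensory neuron TF of the POU class. A peak marks occupancy and not expression. The expression of the 31 genes was not measured in these libraries, and the lists do not show which cells of the sorted gate a peak came from.

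Promoter occupancy of the immune targets was rare, whereas peaks further away were common. A promoter peak is one whose centre lies within 1 kb of an annotated transcription start site (TSS) of any coding transcript. Runx3 had a promoter peak at 3 of the 31 genes, Il2rb, Rac2 and Zbtb7b, or 9.68% (95% Wilson interval 3.35% to 24.9%), beside 36.0% of all protein-coding genes. Brn3a had one at 2 of the 31, C1qb and Rac2, or 6.45% (1.79% to 20.7%), beside 20.6% of all protein-coding genes. Intervals cover the counting of genes or peaks and not the spread between libraries. Rac2 was the 1 member with a promoter peak of both factors.

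A regulatory domain was then given to each gene, from 5 kb upstream to 1 kb downstream of the 5′ end of the gene and extended on each side to the neighbouring genes' own windows, by at most 1 Mb. At least 1 Runx3 peak lay in the domain of 24 of the 31 genes, or 77.4% (60.2% to 88.6%), beside 63.0% of all protein-coding genes. For Brn3a the count was 17 of 31, or 54.8% (37.8% to 70.8%), beside 57.6% of all genes. The domains held 58 Runx3 peaks and 71 Brn3a peaks, and no peak was counted for more than 1 of the 31 genes. The median was 1 peak per gene for either factor, as it was over all protein-coding genes. Of the 31 genes, 15 had peaks of both factors (beside 47.8% of all genes), 9 had Runx3 peaks alone (beside 15.2%), 2 had Brn3a peaks alone, C1qb and Itgam (beside 9.79%), and 5 had none (beside 27.2%). The Runx3 count depended on the domain. With each peak given to the nearest gene 5′ end alone it was 16 of 31, beside 52.0% of all genes, and with the window of 5 kb upstream to 1 kb downstream alone it was 1 of 31, Aif1, beside 36.4%.

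**Figure D1:**
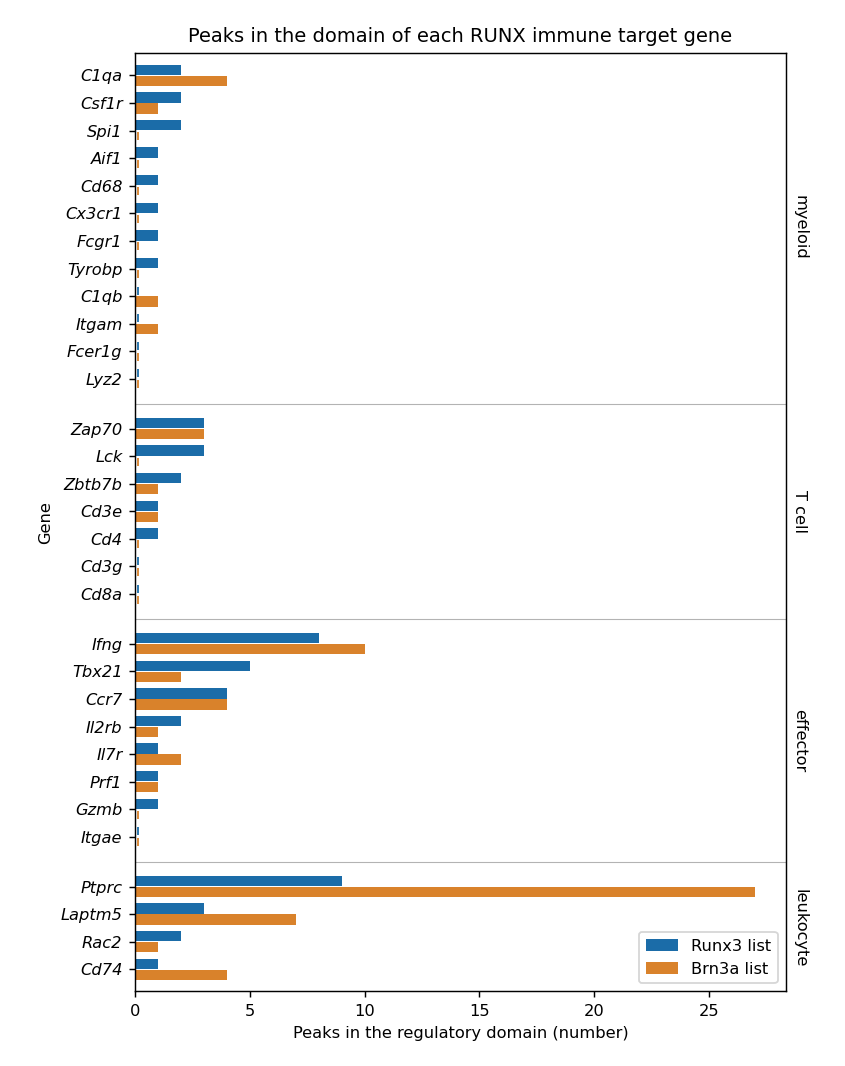
Number of peaks in the regulatory domain of each of the 31 genes (horizontal axis), with genes in rows by role, the Runx3 list in blue above the Brn3a list in orange, and a short tick for 0. Ptprc has 9 Runx3 and 27 Brn3a peaks and Ifng 8 and 10, whereas Cd8a, Itgae, Fcer1g, Cd3g and Lyz2 have none of either.

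The 12 myeloid and macrophage genes had 11 Runx3 peaks at 8 genes and 7 Brn3a peaks at 4 genes. These were 66.7% and 33.3% of the 12, beside 63.0% and 57.6% of all protein-coding genes. The domains of the 12 were short, with a median of 50.0 kb, against 89.7 kb over all protein-coding genes. They held 1.54 Runx3 and 0.981 Brn3a peaks per 100 kb, against 0.943 and 1.25 over all genes, a comparison of unlike lengths. Per myeloid gene the mean was 0.917 Runx3 and 0.583 Brn3a peaks. Over all genes it was 0.707 and 0.442 for domains under 50 kb, and 1.25 and 1.14 for 50 to 150 kb. Spi1 had 2 Runx3 peaks and no Brn3a peak. Both lay in introns of Spi1, 4.1 kb and 4.8 kb downstream of its nearest coding TSSs, and 1 of them held a RUNX binding site (RBS). Csf1r had 2 Runx3 peaks with 3 and 2 RBS, of which 1 lay 14.3 kb upstream of the nearest coding TSS and the other in an intron of the neighbouring gene Hmgxb3. The Csf1r gene itself held no Runx3 peak and 1 Brn3a peak, in an intron 22.1 kb downstream of the TSS.

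Among the other myeloid genes, Runx3 had 1 peak each at Aif1, Cx3cr1, Fcgr1, Tyrobp and Cd68. Aif1, which encodes the macrophage and microglia protein Iba1, had its peak 2.7 kb upstream, with 2 RBS. In Cx3cr1, the fractalkine receptor of microglia and monocytes, the peak lay in an intron 13.2 kb downstream of the TSS and had 1 RBS. The peak in the domain of Fcgr1, a receptor for immunoglobulin G, lay in an exon of a long noncoding RNA gene, 15.7 kb downstream of the Fcgr1 TSS and nearer to the histone gene Hist2h2bb. For the remaining pair the peak was closer to a gene of another kind. That of Tyrobp, an adaptor of myeloid receptors, lay 40.1 kb upstream and 10931 bp from the TSS of Lrfn3, and that of Cd68, a lysosomal protein of macrophages, lay in the promoter of Eif4a1, a translation initiation factor. Neither had an RBS.

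The complement genes C1qa and C1qb, which lie close together on chromosome 4 and encode chains of C1q, differed in which factor was present. C1qa had 2 Runx3 and 4 Brn3a peaks, of which 1 of each list overlapped 12.7 kb upstream. The other Runx3 peak and a pair of the Brn3a peaks lay in introns of Epha8. C1qb had a single Brn3a peak with a V$BRNF motif, centred 576 bp upstream of its TSS, and no Runx3 peak. Itgam, the alpha chain of the CD11b integrin, had 1 Brn3a peak, in a coding exon of Trim72 and 52.2 kb upstream. Fcer1g, the common Fc receptor gamma chain, and Lyz2, the lysozyme of macrophages, had no peak in domains of 17.9 kb and 48.2 kb.

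Of the 7 genes of the T cell receptor, its co-receptors and the helper lineage, 5 had Runx3 peaks (10 in all) and 3 had Brn3a peaks (5 in all). These were 71.4% and 42.9% of the 7, beside 63.0% and 57.6% of all protein-coding genes. Lck, the kinase that starts T cell receptor signalling, had 3 Runx3 peaks and no Brn3a peak. All 3 lay within the Lck gene, 1.2 kb, 1.8 kb and 2.9 kb downstream of the nearest coding TSS, and 2 of the 3 had an RBS. They thus missed the promoter window, which counts coding transcripts alone. In the same order they lay 674 bp, 159 bp and 335 bp from annotated starts of other Lck transcripts. Zap70, the kinase that acts after Lck, had 3 peaks of each list. Of these, 1 Runx3 peak with 1 RBS lay in a Zap70 intron 5.8 kb downstream of the TSS and another, with 2 RBS, lay 17.9 kb downstream. The third Runx3 peak was 117 bp from the TSS of Tmem131, the neighbouring gene. None of the 3 Brn3a peaks of Zap70 had a V$BRNF motif.

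The co-receptor genes Cd8a and Cd4, which Runx3 controls in T cells, had at most 1 peak of either factor. The median over all protein-coding genes was 1 for either factor, and 27.2% of all genes had no peak. Cd8a, which Runx3 activates in cytotoxic T cells, had no peak of either factor in a domain of 112 kb. Cd4 had 1 Runx3 peak with 1 RBS and no Brn3a peak. That peak lay 15.5 kb upstream of Cd4 and 7953 bp from the TSS of Lag3, so the Cd4 gene, whose first intron carries the silencer used in T cells, held no peak. Zbtb7b had a Runx3 promoter peak centred 37 bp from a coding TSS, a second Runx3 peak in the noncoding part of an exon 8.7 kb downstream and a Brn3a peak 1.4 kb upstream. Neither Runx3 peak of Zbtb7b had an RBS. Cd3e had a Runx3 peak with 3 RBS that lay 798 bp from a TSS of its neighbour Cd3d, also a subunit of the T cell receptor complex, and 23.0 kb from its own. The third CD3 gene, Cd3g, had no peak in its domain of 14.8 kb. That domain ends at base 44985431 of chromosome 9, and the Runx3 peak given to Cd3e starts just beyond it, at 44986489. The peak is nearer to the 5′ end of Cd3g, at 44980431, than to that of Cd3e, at 45009627.

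Among the 8 effector, cytotoxic and homing genes, 7 had Runx3 peaks (22 in all) and 6 had Brn3a peaks (20 in all). Over all protein-coding genes the shares with peaks were 63.0% for Runx3 and 57.6% for Brn3a. The domains of the 8 were longer, with a median of 112 kb, against 89.7 kb over all genes. Ifng, the gene of interferon gamma, had 8 Runx3 and 10 Brn3a peaks in a domain of 510 kb. None of them was near its promoter, since the closest Runx3 peak lay 65.3 kb downstream and the closest Brn3a peak 38.6 kb upstream. Of the 8 Runx3 peaks, 7 had an RBS, and 2 of the 8 lay in introns of Ifngas1, the antisense noncoding RNA gene next to Ifng. For 5 of the 8 the nearest coding TSS was that of Dyrk2, a kinase gene at the far end of the domain. Tbx21, which encodes T-bet, the TF that drives Ifng in T cells, had 5 Runx3 and 2 Brn3a peaks. Its Runx3 peaks lay between 9.1 kb and 28.4 kb upstream, apart from 1 that lay 31.1 kb downstream. Those 27.0 kb and 28.4 kb upstream lay in introns of Tbkbp1, whose TSS was nearer. An RBS was present in 4 of the 5, whereas neither Brn3a peak had a V$BRNF motif.

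Ccr7, the receptor that guides T cells to lymph nodes, had 4 peaks of each list. The Runx3 peaks lay 6.7 kb upstream, in a Ccr7 intron 5.0 kb downstream, and 12.4 kb and 41.8 kb downstream, and 2 of the 4 had an RBS. Il2rb, the beta chain of the interleukin 2 receptor, had a Runx3 peak 182 bp downstream of a coding TSS and another 14.8 kb upstream, each with 1 RBS. The single Brn3a peak of Il2rb lay in an intron 7.8 kb downstream and had no motif. Il7r, the interleukin 7 receptor, had 1 Runx3 and 2 Brn3a peaks, all at a distance, and its Runx3 peak lay in an intron of Capsl. The killing genes Prf1 and Gzmb had at most 1 peak of each list. The median was 1 for either factor over all genes with domains of 50 to 150 kb. Prf1, which encodes perforin, had 1 peak of each list, both in introns of Pald1. Gzmb, which encodes granzyme B, had 1 Runx3 peak 52.3 kb upstream. None of these peaks had a motif. Itgae, the CD103 integrin chain that Runx3 activates in T cells, had no peak in a domain of 88.5 kb.

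The 4 leukocyte-wide and antigen presentation genes all had peaks of both factors, 15 of Runx3 and 39 of Brn3a, beside 47.8% of all protein-coding genes with both. The domains of the 4 had a median of 120 kb, against 89.7 kb over all genes. Ptprc, the gene of the pan-leukocyte phosphatase CD45, had more peaks than any other member, with 9 of Runx3 and 27 of Brn3a. Its domain of 1093 kb, which reaches towards Nr5a2, was also the longest of any member. For its Runx3 peaks at 818.8 kb or more from the Ptprc TSS, the nearest coding TSS was that of Nr5a2. The same held for its Brn3a peaks at 610.8 kb or more. A single Runx3 peak and 3 Brn3a peaks lay within the Ptprc gene. Laptm5, a lysosomal membrane protein of leukocytes, had 3 Runx3 and 7 Brn3a peaks, and 2 of its Brn3a peaks lay in introns of Sdc3, which encodes a syndecan of neurons. Cd74, the invariant chain of class II antigen presentation, had 1 Runx3 peak with 2 RBS, in a Cd74 intron 1.3 kb downstream of the TSS. Of the 4 Brn3a peaks of Cd74, 2 lay in the promoter of the ribosomal protein gene Rps14. Rac2, a small GTPase of blood cells, had 2 Runx3 peaks with 2 RBS each, and 1 Brn3a peak without V$BRNF. Of the Runx3 peaks, 1 lay 931 bp downstream of a coding TSS. The other lay 19.1 kb upstream and nearer to Cyth4, 5130 bp from its TSS.

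The sequences of the promoter peaks are printed to show the RBS words in them. The peaks centred 576 bp (C1qb) and 931 bp and 956 bp (Rac2) from the nearest coding TSS do not reach that TSS. They are given 5′ to 3′ on the plus strand of GRCm38, up to 200 bases of each peak, with capitals for the 4 RBS words on either strand. A longer peak was cut to a stretch chosen in part to hold the most marked words. How often such words fall in any stretch of this length was not tested. Of these words TGTGGT was in 34.2% of all Runx3 peaks, TGCGGT was in 13.6% of them, TGTGGC in 21.9% of them and TGCGGC in 12.2% of them, and the RBS column of the Runx3 list is the number of such words in a peak. The Runx3 peak at Il2rb covers chr15:78493390-78493758, with bases 78493474 to 78493673 shown, and has 1 word on the minus strand. The Runx3 peak at Rac2 covers chr15:78563897-78564186, with bases 78563949 to 78564148 shown, and the Brn3a peak at Rac2, chr15:78565860-78565996, is shown whole and lies in a coding exon. The Runx3 peak at Zbtb7b covers chr3:89393562-89393869, with bases 89393649 to 89393848 shown, and holds none of the words. The Brn3a peak at C1qb covers chr4:136886572-136886954, with bases 136886663 to 136886862 shown. The stretches at Rac2 hold 2 words each, and the Brn3a stretch at C1qb holds 1.
Il2rb, Runx3 peak: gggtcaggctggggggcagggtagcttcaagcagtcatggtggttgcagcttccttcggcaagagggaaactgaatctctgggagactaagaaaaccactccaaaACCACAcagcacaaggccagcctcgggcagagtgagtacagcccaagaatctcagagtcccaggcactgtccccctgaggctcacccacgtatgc
Rac2, Runx3 peak: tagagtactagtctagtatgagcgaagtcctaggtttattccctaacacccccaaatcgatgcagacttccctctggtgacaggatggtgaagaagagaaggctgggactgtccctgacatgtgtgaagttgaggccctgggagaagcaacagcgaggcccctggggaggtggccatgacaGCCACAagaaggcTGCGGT
Rac2, Brn3a peak: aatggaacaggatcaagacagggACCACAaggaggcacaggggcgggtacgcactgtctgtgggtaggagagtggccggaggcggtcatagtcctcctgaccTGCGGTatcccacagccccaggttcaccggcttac
Zbtb7b, Runx3 peak: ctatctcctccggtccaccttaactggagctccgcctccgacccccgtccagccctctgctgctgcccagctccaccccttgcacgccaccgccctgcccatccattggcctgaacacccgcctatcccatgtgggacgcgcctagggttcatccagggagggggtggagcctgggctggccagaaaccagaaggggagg
C1qb, Brn3a peak: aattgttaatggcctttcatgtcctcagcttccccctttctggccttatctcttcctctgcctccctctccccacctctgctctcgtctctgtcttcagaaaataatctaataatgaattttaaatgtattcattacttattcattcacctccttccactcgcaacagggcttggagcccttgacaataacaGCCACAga

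The promoter counts rest on which TSS is taken. With the 5′ end of each gene as its only TSS, none of the 31 genes had a Runx3 promoter peak, beside 33.2% of all genes, because the peaks of Il2rb, Rac2 and Zbtb7b lie by internal start sites. For Brn3a the count stayed at 2 of 31, beside 18% of all genes, but the genes were C1qb and Zbtb7b in place of C1qb and Rac2, since the Brn3a peak of Zbtb7b is centred 282 bp upstream of the gene 5′ end. Rac2 thus has promoter peaks of both factors only where its internal start sites are counted. The start sites at the Il2rb and Zbtb7b peaks belong to principal coding transcripts, whereas that at Rac2 belongs to another coding transcript.

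**Figure D2:**
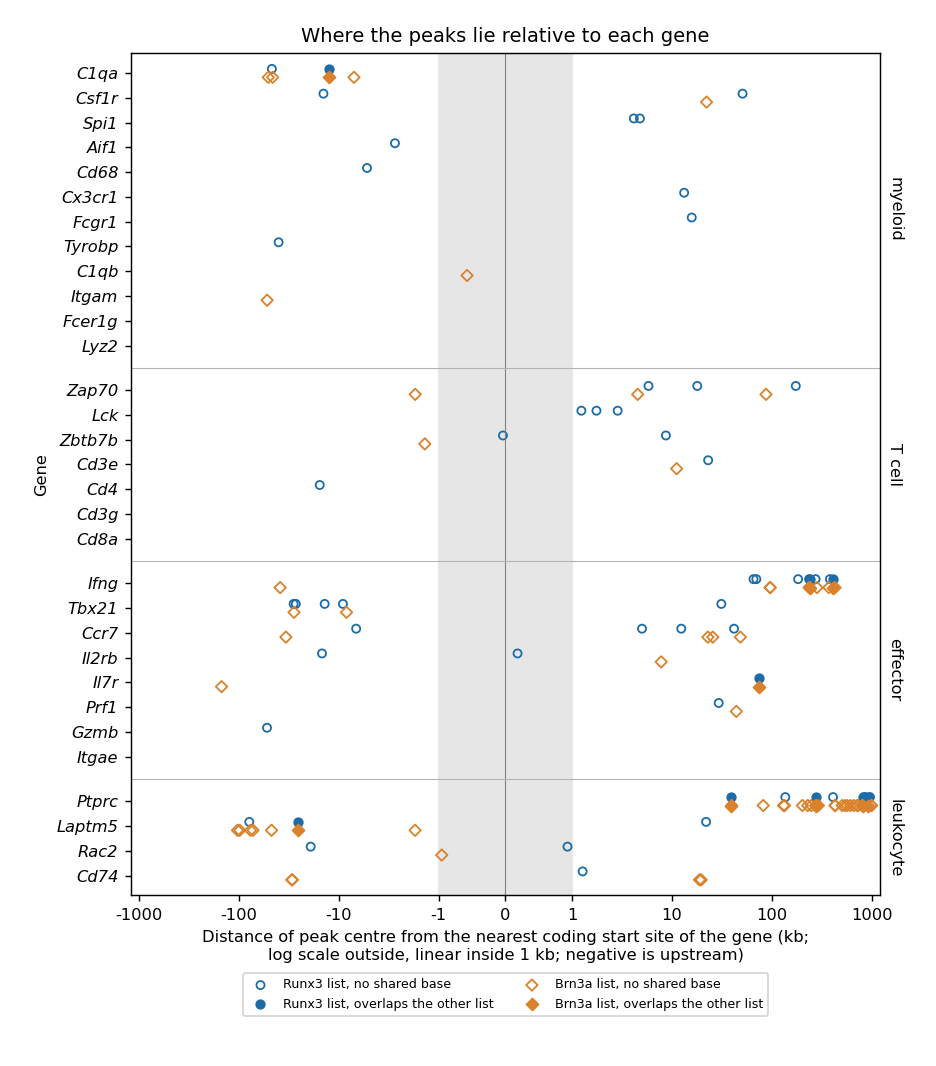
Distance of each peak centre from the nearest coding start site of its own gene in kb (horizontal axis, logarithmic outside and linear inside 1 kb, negative upstream), with blue circles for Runx3, orange diamonds for Brn3a, filled symbols for peaks that overlap the other list and a grey band for the promoter window. The band holds 3 Runx3 peaks, at Il2rb, Rac2 and Zbtb7b, and 2 Brn3a peaks, at C1qb and Rac2.

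Most peaks of these genes lay at a distance, which the extended domains allow for any gene. Distances and places of peaks were not counted for all protein-coding genes, so the values below do not set the immune targets apart. The median distance from the nearest coding TSS of the own gene was 26.3 kb for the 58 Runx3 peaks and 95.8 kb for the 71 Brn3a peaks. Within 5 kb lay 10 Runx3 and 6 Brn3a peaks, and beyond 100 kb lay 15 and 33. The own gene held 14 of the 58 Runx3 peaks, at 10 genes, with 3 of them in Lck and 2 each in Spi1 and Zbtb7b, and it held 7 of the 71 Brn3a peaks. The nearest coding TSS was that of the member for 32 of the 58 Runx3 peaks and 39 of the 71 Brn3a peaks. Promoters of other genes held 3 of the Runx3 peaks, at Cd3d, Tmem131 and Eif4a1, and 4 of the Brn3a peaks, at Sdc3, Dyrk2 and Rps14. Which gene a distant peak acts on was not tested.

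Direct overlap of the factors was uncommon at the immune targets. An overlap is at least 1 shared base between a Runx3 peak and a Brn3a peak. It was found in the domains of 5 of the 31 genes, or 16.1%, namely Ptprc, Ifng, Il7r, Laptm5 and C1qa, beside 31.9% of all protein-coding genes. Of the 58 Runx3 peaks, 9 overlapped a Brn3a peak, or 15.5% (8.38% to 26.9%), beside 32.7% of the whole Runx3 list. Of the 71 Brn3a peaks, 9 overlapped a Runx3 peak, or 12.7% (6.81% to 22.4%), beside 25.6% of the whole Brn3a list. Ptprc held 4 of the 9 overlaps and Ifng 2, and without Ptprc the shares were 10.2% of 49 Runx3 peaks and 11.4% of 44 Brn3a peaks. A Brn3a peak centre lay within 1 kb of 13 of the 58 Runx3 peaks, or 22.4%, beside 38.5% of the whole list.

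The overlaps are printed to show where RUNX words and a Brn3-type word lie in them, on the plus strand of GRCm38. Not every stretch holds both, and longer overlaps were cut in the same way, in part for the most marked words. Capitals mark the RBS words as above and also ATTAAT, a word that reads the same on both strands and that 16.7% of Brn3a peaks and 4.68% of Runx3 peaks contain. The authors' V$BRNF column follows a motif family whose letters are not spelled in the files, so ATTAAT stands beside it and not in its place. The Ptprc stretch, chr1:138136481-138136680, lies in a Ptprc intron 38.6 kb downstream of the nearest coding TSS, with 3 RBS words and no ATTAAT. The Ifng stretches, chr10:118682815-118683011 and chr10:118846803-118847002, lie 241.9 kb and 405.9 kb downstream and hold 1 RBS word and 1 ATTAAT each. At C1qa, chr4:136911399-136911598 holds 1 RBS word and 2 overlapping ATTAAT words, which print as 1 run of capitals. The Il7r stretch, chr15:9455405-9455483, is the whole shared region and holds 1 RBS word, and its Brn3a peak has no V$BRNF. The Laptm5 stretch, chr4:130887444-130887643, lies 25.6 kb upstream and holds ATTAAT but no RBS word. The other 3 Ptprc overlaps lie 276.7 kb or more from the Ptprc TSS and are not printed.
Ptprc, intron: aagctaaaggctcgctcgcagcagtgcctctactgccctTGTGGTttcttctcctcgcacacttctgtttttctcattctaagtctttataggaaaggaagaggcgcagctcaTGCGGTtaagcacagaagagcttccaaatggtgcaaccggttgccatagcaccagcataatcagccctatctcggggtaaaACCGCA
Ifng, nearer overlap: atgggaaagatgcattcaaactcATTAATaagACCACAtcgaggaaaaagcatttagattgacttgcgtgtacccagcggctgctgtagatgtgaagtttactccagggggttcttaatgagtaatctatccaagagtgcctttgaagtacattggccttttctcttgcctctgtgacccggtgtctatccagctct
Ifng, farther overlap: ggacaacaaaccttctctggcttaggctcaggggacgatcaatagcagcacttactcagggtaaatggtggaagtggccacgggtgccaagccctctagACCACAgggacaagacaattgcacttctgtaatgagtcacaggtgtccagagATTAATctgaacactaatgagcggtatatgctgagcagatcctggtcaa
C1qa: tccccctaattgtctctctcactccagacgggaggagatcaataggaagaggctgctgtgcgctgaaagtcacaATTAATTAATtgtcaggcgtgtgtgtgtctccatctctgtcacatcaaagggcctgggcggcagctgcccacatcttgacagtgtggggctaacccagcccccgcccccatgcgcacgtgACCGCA
Il7r: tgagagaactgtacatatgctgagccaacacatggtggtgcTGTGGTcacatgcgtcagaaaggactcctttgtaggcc
Laptm5: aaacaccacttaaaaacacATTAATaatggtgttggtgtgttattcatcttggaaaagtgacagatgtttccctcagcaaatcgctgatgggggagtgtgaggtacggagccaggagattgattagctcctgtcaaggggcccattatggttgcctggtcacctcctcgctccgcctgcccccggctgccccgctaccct

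RBS were found in most Runx3 peaks of these genes. Of the 58 peaks, 41 had at least 1 RBS, or 70.7% (58% to 80.8%), beside 61.3% of the whole list, and the interval includes the share of the whole list. By number, 17 peaks had no RBS, 25 had 1, 11 had 2 and 5 had 3. Those with 3 lay at Ptprc (2 peaks), Csf1r, Cd3e and Laptm5. The Laptm5 peak, chr4:130937700-130938005, lies 5820 bp from an annotated Laptm5 start and 6533 bp from the TSS of Matn1, a cartilage matrix gene. It is printed, bases 130937753 to 130937952 of the plus strand of GRCm38, as an example of a peak with most RBS words, all 3 of which read on the plus strand.
Laptm5, Runx3 peak: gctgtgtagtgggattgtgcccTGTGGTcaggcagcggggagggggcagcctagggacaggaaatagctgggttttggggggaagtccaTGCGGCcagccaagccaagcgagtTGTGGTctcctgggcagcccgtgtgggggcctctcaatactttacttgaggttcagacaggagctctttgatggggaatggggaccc

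For Brn3a, 40 of the 71 peaks had a V$BRNF motif, or 56.3% (44.8% to 67.3%), beside 54.2% of the whole list. This share rested on Ptprc, with 22 of its 27 Brn3a peaks having the motif, and without Ptprc 18 of 44 had it, or 40.9% (27.7% to 55.6%). The word ATTAAT was in 17 of the 71 Brn3a peaks, or 23.9% (15.5% to 35.0%), and in 6 of the 58 Runx3 peaks, or 10.3% (4.83% to 20.8%). Peak widths were like those of the lists, with a median of 168 bp for the Runx3 peaks of these genes, beside 176 bp in the whole list, and 167 bp for the Brn3a peaks, beside 171 bp.

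**Figure D3:**
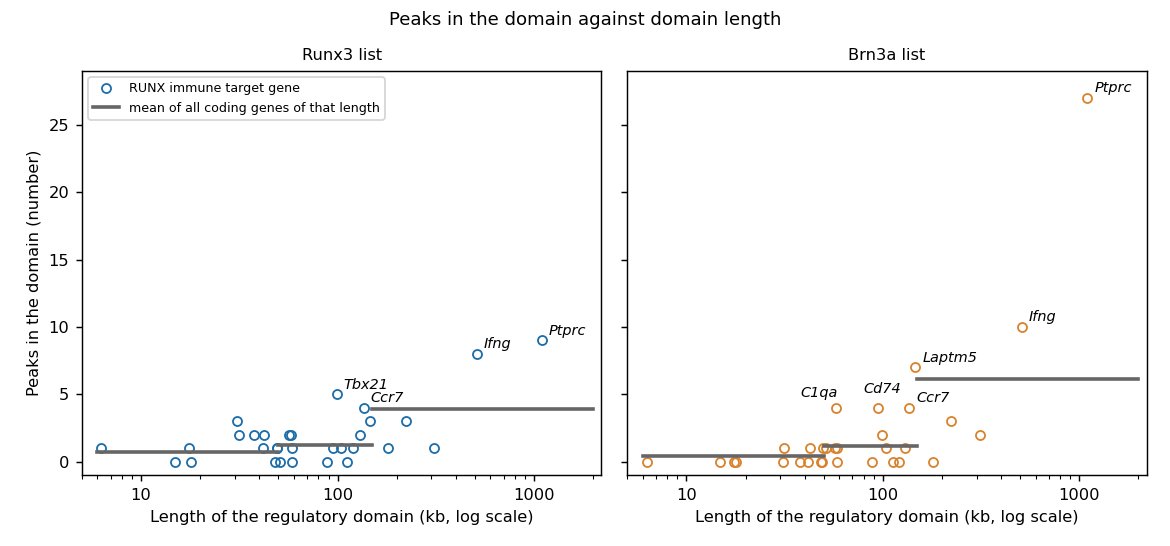
Peaks in the domain (vertical axis, number) against the length of the domain (horizontal axis, kb, log scale) for the 31 genes, with the Runx3 list on the left, the Brn3a list on the right and grey bars for the mean of all coding genes in 3 length classes. Ptprc and Ifng have the longest domains and most peaks of both factors, and Ptprc stands apart for Brn3a with 27.

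The domains measured 58.5 kb at the median, against 89.7 kb over all protein-coding genes, and they ran from 6.27 kb at Cd68 to 1093 kb at Ptprc. Among the 12 genes with domains under 50 kb, 9 had a Runx3 peak, beside 47.1% of all genes of that length, and 3 had a Brn3a peak, beside 32.1%. In the class from 50 to 150 kb, Runx3 peaks were present at 10 of 14 genes, beside 59.7%, and Brn3a peaks also at 10 of 14, beside 55.0%. Beyond 150 kb, 5 of 5 genes had Runx3 peaks, beside 80.8%, and 4 of 5 had Brn3a peaks, beside 83.4%. Per 100 kb of domain there were 1.44 Runx3 and 1.77 Brn3a peaks, against 0.943 and 1.25 over all genes, where a peak in the domains of neighbouring genes counts for each. Densities were not compared within classes of domain length. Without Ptprc the domains held 49 Runx3 peaks and 44 Brn3a peaks, or 1.68 and 1.5 per 100 kb. These classes and densities are descriptions with no replicate error, and no test was made of the members against other genes.

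**Figure D4:**
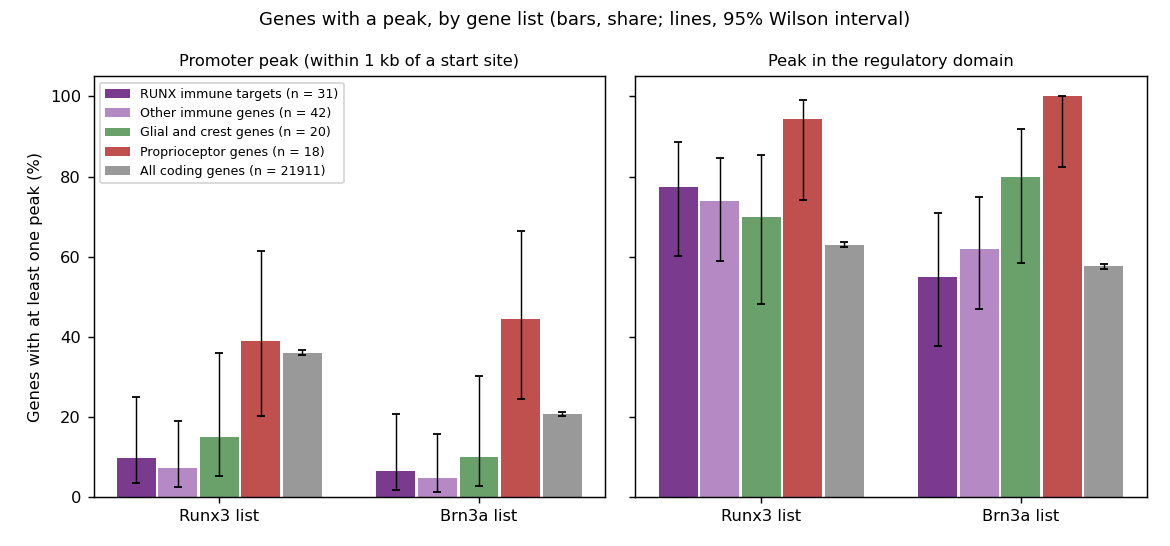
Share of genes (vertical axis, %) with at least 1 promoter peak (left) or at least 1 peak in the domain (right) for each list of peaks, with bars for 5 lists of genes and lines for the 95% Wilson interval. The immune targets stand at 9.68% and 6.45% for promoters and at 77.4% and 54.8% for domains. The proprioceptor and sensory neuron genes, labelled proprioceptor genes, have the tallest bar of the 5 in each of the 4 sets.

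The same counts were taken in 3 other gene lists. Over all protein-coding genes, 36.0% had a Runx3 and 20.6% a Brn3a promoter peak. For domains the shares were 63.0% and 57.6%, and 31.9% of all genes had an overlap. Of 42 other immune genes, 3 had a Runx3 promoter peak and 2 a Brn3a promoter peak, and 31 and 26 had peaks of the factors in their domains. In the 31 targets overlaps were present at 5 genes, against 16 of the 42 other immune genes, whose domains were longer, with a median of 96.7 kb. The list of 18 proprioceptor and sensory neuron genes included Ntrk3, the TrkC gene, but also genes such as Ntrk2, the TrkB gene. Of the 18, 7 had a Runx3 and 8 a Brn3a promoter peak, 17 and 18 had peaks in their domains, and 17 had an overlap. The median numbers were 1 Runx3 and 1 Brn3a peak per immune target, against 8.5 and 19 per gene of these 18, whose domains had a median of 675 kb. Of 20 glial and neural crest genes, 3 and 2 had promoter peaks, 14 and 16 had peaks in their domains and 9 had an overlap. These differences between lists were not tested.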

How the data were processed

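CUT&RUN peak lists of TrkC neurons were analysed as deposited. Per the labels, the authors used cutadapt, Bowtie and MACS2 with GRCm38 (mm10), with versions and calling options not given in the sources used here. Deposited by the authors was 1 consensus list per antibody, with positions, a count of RBS per Runx3 peak and a score of 0 or 1 for V$BRNF per Brn3a peak. The RBS count equalled the number of the 4 words in 25883 of 25883 nuclear Runx3 peaks. The table deposited for H3K27Ac was identical to the Runx3 table and was not used. The serum library was not analysed here, so no background of the assay can be given.

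The 25883 nuclear Runx3 peaks and 32887 Brn3a peaks were placed by their centres on GENCODE M21 genes with pandas 2.3.3, numpy 2.4.6 and scipy 1.17.1 under Python 3.11.15, and plotted with matplotlib 3.10.9. The assignment was checked on a few planted peaks and invented genes with known answers. Members and gene lists were chosen with earlier results of these data known, so no test was made of them. Members with a promoter peak, an overlap or at least 3 peaks of a list were described in more detail than the others. Not every peak of these members was placed. Alternatives changed promoter width, TSS, domain, assignment, overlap and peak width.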

Additional observations from a re-analysis of the deposited data

How the results depend on the processing

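The lists hold pooled peaks, so depth, peak height and the spread between libraries do not enter any value, and a peak seen in 1 library was dropped by the authors. No paired analysis was possible because replicates had been merged into 1 list per antibody before deposition. Of 53 alternative values, 29 stayed within 1.5 times the reported count or, for shares of peaks, within the Wilson interval of the reported share, and 24 moved further. A count within 1.5 times can still lose its distance from all genes, as for the Runx3 domain with the nearest gene 5′ end.

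In the following, the percentage after "beside" is the share of all protein-coding genes. For shares of peaks with a motif it is the share of all peaks in domains under the same setting. With the basal domain alone, 1 member had a Runx3 peak (beside 36.4%), 4 had a Brn3a peak (beside 21.3%) and 0 had an overlap (beside 13.1%). The 1 Runx3 peak had an RBS, or 100% (beside 53.7%), and 25% of the 4 Brn3a peaks had V$BRNF (beside 21.4%). With extension by at most 100 kb, 38 Brn3a peaks lay in the domains, 39.5% with V$BRNF (beside 45.6%). With assignment to the nearest gene 5′ end, there were 27 Runx3 and 39 Brn3a peaks, 16 members had a Runx3 peak (beside 52.0%) and 3 had an overlap (beside 23.6%). With peaks at least as wide as the median, there were 28 Runx3 and 34 Brn3a peaks, and 82.4% of the Brn3a peaks had V$BRNF (beside 69.9%). At that width 19 members had a Runx3 peak (beside 45.9%), 9 had a Brn3a peak (beside 39.3%) and 1 had a Brn3a promoter peak (beside 11.8%). Runx3 promoter peaks were at 0 members with the gene 5′ end as the only TSS (beside 33.2%) and at 5 with a promoter of 2 kb (beside 38%), which added Cd74 and Lck. Brn3a promoter peaks were at 0 members within 500 bp (beside 18.4%) and at 5 within 2 kb (beside 23.1%). Among alternatives chosen after seeing the data, principal transcripts alone gave 1 member with a Brn3a promoter peak (beside 14.1%). Leaving out Ptprc gave 44 Brn3a peaks, 40.9% with V$BRNF (beside 53.9%).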
